A study of Mus musculus with 5 samples.

Results

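Dividing cells of the small intestinal epithelium were picked out of 1 droplet library by 5 genes of late S phase and mitosis. A barcode was counted as a cell when it held more than 1000 detected genes and less than 10% of its unique molecular identifiers (UMIs, 1 per captured RNA molecule) on mitochondrial genes. A cell was called cycling when at least 3 of Top2a, Ube2c, Mki67, Birc5 and Cdk1 had at least 1 UMI, which held for 306 of 9451 cells (3.24%, 95% exact binomial interval 2.89 to 3.61). They were set beside the 8307 cells with none of the 5 genes, and 838 cells with 1 or 2 of them were kept apart.

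The library was made from the pooled small intestines of 4 untreated Neurog3-Cre; R26-LSL-tdTomato mice on C57Bl/6J, 6 weeks old, sorted for tdTomato. Crypts and villi were both dissociated. Neurog3 drives Cre in the shared progenitor of enteroendocrine cells (EECs), and the reporter then stays on in every descendant, so a labelled cell need not express Neurog3 when it is collected. Pooling leaves no replicate in the droplet data, and every interval given for it covers counting error only. A second experiment used 6 Cck-Cre; R26-LSL-tdTomato mice on C57Bl/6J, aged 6 to 8 weeks, of which 3 were fasted overnight and 3 were fasted and then refed Ensure, a liquid diet. Each of these mice gave 1 bulk RNA-Seq library of tdTomato+ cells (CCK+, cells in which the promoter of the hormone gene Cck has been active) and 1 of tdTomato- cells (CCK-). The 12 bulk libraries took no part in the choice of the cells, and they carry the replicates.

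Cells of the intestinal crypt renew the epithelium throughout life. Stem cells marked by Lgr5 and Olfm4 divide at the crypt base, their daughters divide several more times as transit-amplifying cells, and Notch signalling with the transcription factors Hes1 and Atoh1 sorts them into absorptive and secretory fates. A dividing cell first licenses its replication origins by loading the MCM helicase, then copies its DNA in S phase, and in G2 and M phase makes the kinases, kinetochores and spindle that part the chromosomes. The 5 genes of the rule belong to the last part of this sequence. Top2a untangles the copied chromosomes, Ube2c hands ubiquitin to the anaphase-promoting complex, Mki67 coats mitotic chromosomes, Birc5 (survivin) sits in the chromosomal passenger complex, and Cdk1 is the kinase that starts mitosis.

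Genes of G2 and M phase share 2 short promoter elements that are known from textbooks: the cell cycle homology region (CHR, TTTGAA) and the CCAAT box. Genes of S phase are known for E2F sites. The 170 bases before the RefSeq start of the 5 rule genes and of Mcm5, a subunit of the MCM helicase with an E2F match, are shown because these are the genes by which the cells were chosen or which mark the opposite end of the sequence. They are written 5′ to 3′ along the gene on build GRCm38.p6, all upstream of the transcript, and capitals mark matches to the CHR, the CCAAT box and the E2F forms TTTCGCGC and TTTGGCGC on either strand, where neighbouring matches can overlap.
Top2a, chr11:99024190-99024359, minus strand: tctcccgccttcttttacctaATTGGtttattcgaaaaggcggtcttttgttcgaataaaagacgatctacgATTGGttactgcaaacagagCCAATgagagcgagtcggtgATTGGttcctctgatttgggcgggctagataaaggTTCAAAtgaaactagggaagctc
Ube2c, chr2:164769759-164769928, plus strand: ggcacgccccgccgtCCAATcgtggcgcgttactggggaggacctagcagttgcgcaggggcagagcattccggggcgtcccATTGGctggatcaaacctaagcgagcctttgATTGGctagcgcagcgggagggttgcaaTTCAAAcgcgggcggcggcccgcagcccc
Mki67, chr7:135716380-135716549, minus strand: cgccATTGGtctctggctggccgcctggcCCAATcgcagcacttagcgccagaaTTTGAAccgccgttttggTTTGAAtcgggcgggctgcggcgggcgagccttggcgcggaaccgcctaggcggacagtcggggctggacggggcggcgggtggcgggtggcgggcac
Birc5, chr11:117849067-117849236, plus strand: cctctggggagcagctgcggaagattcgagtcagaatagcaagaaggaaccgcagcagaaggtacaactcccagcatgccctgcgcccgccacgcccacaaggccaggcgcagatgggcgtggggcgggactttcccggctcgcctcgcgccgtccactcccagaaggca
Cdk1, chr10:69352913-69353082, minus strand: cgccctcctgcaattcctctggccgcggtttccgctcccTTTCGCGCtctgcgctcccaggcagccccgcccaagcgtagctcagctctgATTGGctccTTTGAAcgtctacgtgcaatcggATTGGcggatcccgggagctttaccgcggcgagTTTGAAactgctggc
Mcm5, chr8:75109339-75109508, plus strand: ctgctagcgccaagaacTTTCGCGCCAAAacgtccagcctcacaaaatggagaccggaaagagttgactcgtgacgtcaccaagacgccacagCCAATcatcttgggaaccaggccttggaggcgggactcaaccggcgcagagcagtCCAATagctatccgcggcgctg

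Windows of 300 bases, 250 before and 50 after the start, were searched for 27025 genes. TTTGAA was present in 4 of the 5 rule genes, and so was CCAAT, while the Birc5 window held neither. The TTTGAA matches ended within 120 bases of the start in these genes, for example 23 bases upstream in Top2a and 29 in Ube2c. Of the 46 genes of a G2/M set with a window, 32 held TTTGAA (69.6%, against 18.1% of all windows) and 35 held CCAAT (76.1%, against 37.9%). Both elements stood together in 26 of the 46 (56.5%, against 7.12% of all windows). The E2F forms were found in 6 of 10 origin licensing genes (60%) and in 2 of the 46 G2/M genes (4.35%), against 0.833% of all windows. Fewer than 80% of the S phase set (31 of 43) and of the crypt stem cell list (12 of 19) had a window, so the search was void for these lists. A match is a run of letters in a window and was not read as a bound site.

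Within the library the rule favoured deep cells. The cycling cells held a median of 15291 UMIs (2961 to 40201) over 3761 genes, against 5652 UMIs over 1537 genes in cells with none, and a median of 3.78% against 2.16% of UMIs on mitochondrial genes. Levels are therefore given as summed UMIs per 10000, with a second comparison in which cells with none were weighted to the depth of the cycling cells, called depth-matched here. That reference was rich in Paneth RNA: a list of Paneth genes summed to 2022 UMIs per 10000 in it, against 436 in cells with none. The last reference is the free RNA of the droplets, pooled from 410487 barcodes of 1 to 100 UMIs (1.85% of all UMIs in the matrix). UMIs are counted at one end of a transcript and were not scaled by gene length.

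Mki67 was seen in 93.5% of the cycling cells, Ube2c in 90.2%, Top2a in 88.6%, Birc5 in 87.9% and Cdk1 in 66.3%. These values chose the cells and are given as a description. Ube2c stood at 3.74 UMIs per 10000 (95% Poisson interval 3.58 to 3.92), Top2a at 3.26 (3.10 to 3.42), Birc5 at 2.87 (2.72 to 3.02), Mki67 at 2.67 (2.53 to 2.82) and Cdk1 at 1.01 (0.923 to 1.10). In free RNA the same genes lay between 0.105 (Cdk1) and 0.284 (Ube2c) UMIs per 10000. Of the 306 cells, 155 held all 5 genes, 77 held 4 and 74 held 3.

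The other genes of the label followed the number of rule genes in a cell. Hmgb2, a chromatin protein that bends DNA, stood at 0.284 UMIs per 10000 with none of the 5, at 0.734 with 1, at 3.53 with 2, at 5.83 with 3, at 9.56 with 4 and at 13.4 with 5. Stmn1, which destabilises microtubules, stood at 0.122, 0.441, 1.98, 4.15, 4.07 and 5.58 in the same order. At the threshold itself, the 107 cells with 2 genes had a median of 10830 UMIs and the 74 cells with 3 genes a median of 13091. A G2/M set of genes without the 5 rule genes moved from 18.1 to 28.7 UMIs per 10000 across that step, an S phase set from 8.34 to 17.2, and a crypt stem cell list from 5.93 to 7.90. Above the threshold the S phase set was nearly flat (17.2, 17.1 and 17.6 with 3, 4 and 5 genes) while the G2/M set went on to 44.4 and 69.1. Cells kept out with 2 genes thus held less of both sets than those kept, and more than cells with none, at 1.65 for S phase and 7.40 for G2/M.

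**Figure D1:**
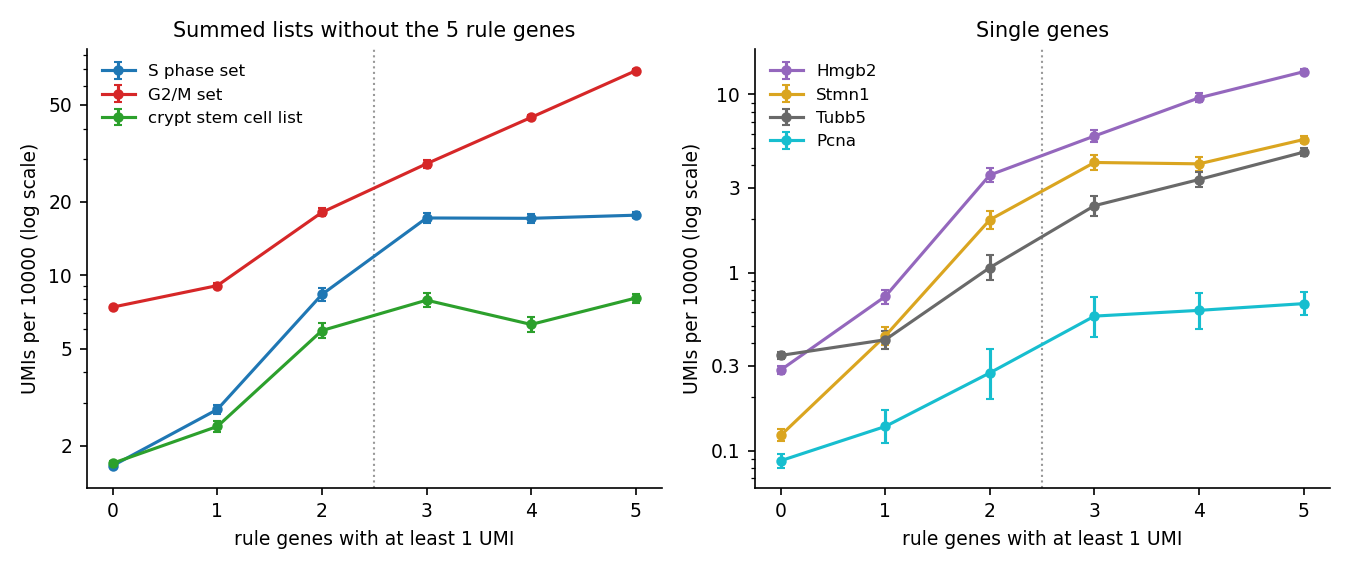
Summed UMIs per 10000 (log scale) in cells with 0 to 5 of the rule genes, for the S phase, G2/M and crypt stem cell lists without the rule genes (left) and for 4 genes (right), with 95% Poisson intervals and a dotted line at the threshold of 3 genes. The G2/M set climbs from 7.40 to 69.1 and Hmgb2 from 0.284 to 13.4, while the S phase set levels off at about 17 from 3 genes on.

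Genes of every stage of the cell cycle were higher in the cycling cells than in cells with none. Over the 10 cycle lists without the rule genes, 148 of 149 genes with enough UMIs stood at least 2-fold above depth-matched cells and 0 stood 2-fold below, with a median ratio of 26.1. Over all 11718 genes compared, 46.6% stood at least 2-fold higher and 6.71% at least 2-fold lower, with a median ratio of 1.87. The cells were picked by genes of the same programme, so these counts describe the cells and test nothing. Summed over the cycle lists without the rule genes, the cycling cells held 167 UMIs per 10000, cells with none 22.8 and depth-matched cells 17.7. The single lists below keep their rule genes: Cdk1 with the cyclins, Ube2c with the mitotic kinases, Birc5 with the centromere genes and Top2a with chromatin. Cells with none hold no UMI of these genes by the rule, so they add to the cycling side of the sums alone.

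Origin licensing genes, which load the helicase before S phase, summed to 4.31 UMIs per 10000 against 0.309 in depth-matched cells, a ratio of 13.9. Their most abundant members were Gmnn, the inhibitor of a second licensing, at 0.927, the helicase subunits Mcm6 at 0.509 and Mcm5 at 0.438, and the origin recognition subunit Orc6 at 0.509. Mcm3 had the highest ratio of the list to cells with none (42.4) and Gmnn the lowest (8.36). Replication fork genes summed to 7.23 against 0.565. Lig1, the ligase of the lagging strand, stood at 0.788, the clamp loaders Rfc2 and Rfc4 at 0.755 and 0.598, and Pcna, the sliding clamp, at 0.634. Pold3, a polymerase subunit, had the lowest ratio of the fork genes to cells with none (2.71) and the helicase partner Cdc45 the highest (46.4).

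Nucleotide synthesis genes summed to 8.26 UMIs per 10000 against 0.618. Dctpp1, which clears odd nucleotides, stood at 2.28, and Dtymk and Tyms of thymidylate synthesis at 1.63 and 0.899. Dut, which keeps uracil out of DNA, was 14.2 times as high as in depth-matched cells. Rrm2, the regulated subunit of ribonucleotide reductase, was 55.7 times as high as in depth-matched cells. All 8 genes of this list, all 11 compared of the licensing list and all 20 of the fork list stood at least 2-fold above depth-matched cells.

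Cyclins and their kinases, with the rule gene Cdk1 among them, summed to 17.2 UMIs per 10000 against 1.88. Ccnd2, a D-type cyclin of early G1, was the most abundant at 3.52, before Cks2 at 2.90, the G1 kinase gene Cdk4 at 2.77 and Cks1b at 1.52, Cks proteins being small partners of the kinases. The mitotic cyclin Ccnb1 stood at 0.770, 216 times its level in cells with none, where 19 UMIs were found in all. Ccnd3 was the exception of all the cycle lists, with 0.305 UMIs per 10000, 0.907 times its level in cells with none and 1.67 times that in depth-matched cells.

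Centromere and kinetochore genes, with the rule gene Birc5 among them, had the largest ratio of the cycle lists to depth-matched cells. They summed to 12.1 UMIs per 10000 against 0.182 in depth-matched cells (66.2-fold), led by the centromeric histone Cenpa at 1.69, Cenpf at 1.40, the passenger complex gene Cdca8 at 1.37 and the kinetochore motor Cenpe at 1.08. Mitotic kinases and checkpoint genes, with the rule gene Ube2c among them, summed to 13.9 against 0.859. Ube2s, which extends ubiquitin chains for the anaphase-promoting complex, stood at 4.64, the checkpoint gene Bub3 at 1.30 and Cdc20, the activator of that complex, at 1.16. Cdc20 was 103 times as high as in depth-matched cells, and Pttg1 (securin) had the lowest ratio of the list to cells with none, at 3.48. Spindle and cytokinesis genes summed to 25.2 against 2.69, with the tubulins Tubb4b at 5.06, Tuba1b at 4.01 and Tubb5 at 3.89. Tubb4b was 2.49 times as high as in depth-matched cells, Tubb5 17.8 times and Tuba1b 26.4 times.

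Chromatin and nuclear structure genes summed to 67.6 UMIs per 10000 against 7.04. Among the cycle lists this was second to the G2/M set at 68.1, both with the rule gene Top2a included. The histone variant H2afz stood at 19.3, Hmgb2 at 10.9 (10.6 to 11.2), Hmgb1 at 10.7 and H2afv at 7.35. Hmgb2 stood at 0.284 in cells with none, and it was found in 84.6% of cycling cells and 5.56% of cells with none after every cell was thinned to 2000 UMIs. Stmn1 stood at 4.91 (4.72 to 5.11) against 0.122, and in 54.9% against 2.10% of thinned cells. These markers of the label, which the rule did not use, stood at 8.59 (Hmgb2) and 8.57 (Stmn1) times their share in free RNA. Both belong to the cycle lists, so their levels describe the cells and test nothing.

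**Figure D2:**
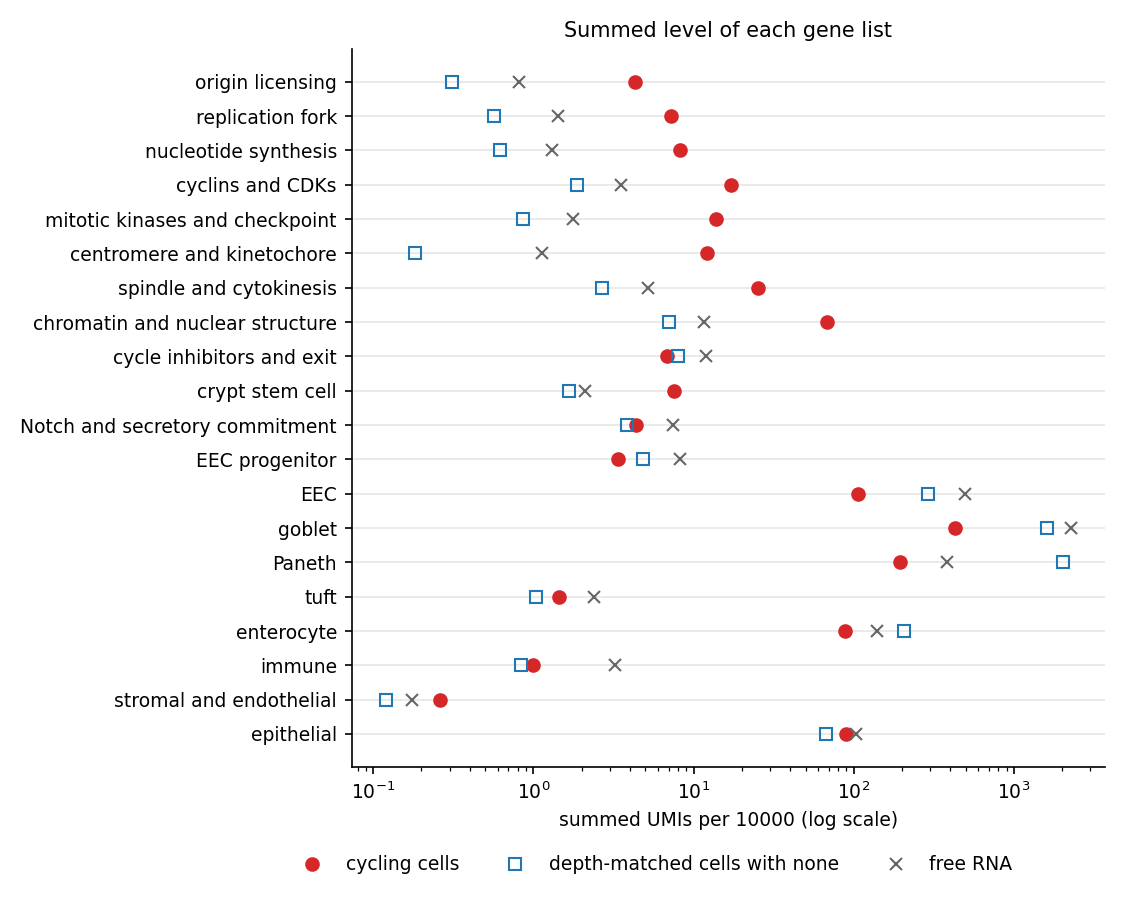
Summed UMIs per 10000 (log scale) of each gene list in the 306 cycling cells (filled circles), in depth-matched cells with none of the rule genes (open squares) and in free RNA (crosses). The 8 cycle lists at the top, shown with the rule genes they hold, lie to the right of both references. The EEC, goblet, Paneth and enterocyte lists lie to the left of both.

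The list of cycle inhibitors and exit genes summed to 6.79 UMIs per 10000 in cycling cells, 14.7 in cells with none and 7.98 in depth-matched cells, and of 12 genes compared 6 stood at least 2-fold higher and 1 at least 2-fold lower than in depth-matched cells, shares near the 46.6% and 6.71% of all genes. Cdkn1a (p21), the inhibitor induced by p53, stood at 1.55 (1.44 to 1.66) against 6.03 in cells with none and 3.28 in depth-matched cells. Btg2, an antiproliferative gene, stood at 1.98 and Btg1 at 1.14, 0.951 and 1.00 times their depth-matched levels. Cdkn1b (p27) at 0.459 was 2.10 times and Cdkn2c (p18) at 0.151 was 16.3 times as high as in depth-matched cells. No UMI of Cdkn2a was found in the cycling cells.

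The crypt stem cell list summed to 7.60 UMIs per 10000 (7.36 to 7.85) in cycling cells against 1.69 in cells with none, a ratio of 4.49. Of its genes, 15 of 17 stood at least 2-fold above depth-matched cells, where 46.6% of all genes compared did so. Its most abundant members were the ion transporter Slc12a2 at 1.61, Prom1 at 0.931, Smoc2, a matrix protein of the stem cell zone, at 0.905, and Cdca7 at 0.784. Cdca7 is also a member of the S phase set. Olfm4 stood at 0.624, 17.9 times the depth-matched level, and was found in 124 cycling cells (40.5%) against 1.61% of cells with none. Lgr5, the receptor that defines the stem cells, stood at 0.0788 and was found in 29 cycling cells (9.48%) against 0.469%. Ascl2, the stem cell transcription factor, was found in 53 cells (17.3%) against 0.409%, and Smoc2 in 195 (63.7%) against 2.11%. Thinned to 2000 UMIs, the shares were 12.4% against 0.582% for Olfm4, 14.1% against 0.618% for Smoc2 and 2.29% against 0.145% for Lgr5. Ephb3 was 0.659 times as high as in depth-matched cells, and Msi1 had the lowest ratio to cells with none (1.32).

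Neurog3 itself, the gene whose promoter drove the label, was rare. It was found in 6 of the 306 cycling cells (1.96%, 0.723 to 4.22) and in 15 of the 8307 cells with none (0.181%), and 4 of the 6 cells held at least 3 UMIs, the highest 12. The cycling cells held 25 UMIs of it in all. These shares were not taken at equal depth. In the crypt stem cell-like cluster described below, 2 of the 127 cells with none held Neurog3 (1.57%, 0.191 to 5.57), close to the share of all cycling cells. The Notch target Hes1 was found in 59.8% of cycling cells against 13.5% of cells with none (13.1% against 4.27% when thinned), and the Notch ligand Dll1 in 22.5% against 5.96% (4.58% against 2.13%). Atoh1, which starts the secretory fate, was found in 34.6% against 34.1%, and after thinning in 6.54% against 14.9%. Hes6 at 0.879 and Sox4 at 0.741 UMIs per 10000 were 2.32 and 2.58 times as high as in depth-matched cells, Foxa3 at 0.727 and the goblet cell factor Spdef at 0.432 were 0.505 and 0.694 times as high, and Notch1 at 0.137 was 23.3 times as high. Over all genes compared, the median ratio to depth-matched cells was 1.87. The list of Notch and secretory commitment genes summed to 4.34, against 6.95 in cells with none, 3.84 in depth-matched cells and 7.44 in free RNA. The EEC progenitor list summed to 3.40, against 12.2, 4.81 and 8.29 in the same order.

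Genes of mature cells took little of the RNA of cycling cells. The EEC, goblet and Paneth lists together made up 7.27% of their UMIs, against 39.6% in cells with none and 31.3% in free RNA. The EEC list summed to 107 UMIs per 10000 against 853 in cells with none, the goblet list to 426 against 2666, the Paneth list to 194 against 436 and the enterocyte list to 87.6 against 172. All of these lay below the free RNA of the library, which held 492, 2253, 382 and 140. Depth-matched cells held 291, 1603, 2022 and 205 of the same lists. The median cycling cell held 23.5 of the Paneth list, far below the sum of 194. The hormone genes Sct and Cck both stood at 28.0, Ghrl at 14.4 and Gip at 12.3. Of the goblet genes Tff3 stood at 131 and Zg16 at 122, and of the Paneth genes the defensin Defa24 at 124 and Lyz1 at 20.1. Chga, a granule protein of EECs, was found in 79.4% of cycling cells and 78.6% of cells with none, at 3.14 against 23.0 UMIs per 10000 and 13.2 in free RNA, so its share did not set the cells apart. Immune genes summed to 0.994 and stromal and endothelial genes to 0.263, against 3.26 for immune genes in free RNA, while the epithelial list stood at 89.0 against 101 in cells with none.

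Outside the cycle lists, the 12 genes with the highest ratio to depth-matched cells were Prr11, Ccnf, Ska1, Kif15, Hist1h2ab, Sgol2a, Tff1, Esco2, Fignl1, Gkn2, Kifc1 and Hist1h2ap. Most of them are also known from cell division, among them the spindle genes Ska1, Kif15 and Kifc1, the cohesion genes Esco2 and Sgol2a and 2 histone genes. The cells were picked by division genes, so this describes them and tests nothing. All but Hist1h2ap reached the minimum count for comparison in the cycling cells alone. Prr11 had 61 UMIs there and 3 in cells with none, Ccnf 73 and 5, and Ska1 75 and 4. The order of such ratios therefore rests on few UMIs of the reference. Esco2 had 202 UMIs in cycling cells and 12 in cells with none, a ratio of 181 (101 to 356) per UMI. Hist1h2ap, a replication-dependent histone, had 584 and 100, a ratio of 62.9 (50.8 to 78.5). Tff1 and Gkn2 came from 1 cell, which held 672 of 673 and 639 of 641 of their UMIs. The 12 genes with the lowest ratio tied at no UMI in the cycling cells, against 55 (Cdh4) to 133 (Ptgs2) in cells with none. These raw counts come from 4950870 UMIs in cycling cells and 53286475 in cells with none. With no UMI, the upper 95% limit in cycling cells was 0.00745 UMIs per 10000. Only Tgm5 (0.00924) and 5031425F14Rik (0.00792) lay above it in depth-matched cells, so the other genes were too rare there to be called lower. Among abundant genes, chosen after their values were seen, Npm1 and Ncl of the nucleolus stood at 11.5 and 8.41 UMIs per 10000, 9.75 and 9.38 times their depth-matched levels, Ran and Ranbp1 of nuclear transport at 8.63 and 6.41 (10.1 times each), Ptma at 34.0 (9.23 times) and the mitochondrial chaperone Hspd1 at 9.61 (8.62 times).

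All cells were clustered without 229 genes, those of the cycle lists and 68 histone genes, so that these genes would not set the groups. Of 23 clusters, 1 held 212 of the 306 cycling cells (69.3%). It was crypt stem cell-like, with Olfm4 and Smoc2 among its leading genes beside Clca3b, Ifitm3, Dmbt1 and Cps1, and 46.5% of its 456 cells were cycling. A goblet-like cluster of 306 cells, led by Ccl9, Guca2a, Fkbp11 and Retnlb, held a further 81 (26.5% of it). Its leading genes also held 2810417H13Rik. The remaining cells lay in Paneth-like (8), tuft-like (2), EEC-like (1), enterocyte-like (1) and immune-like (1) clusters, and 16 clusters held 0. The cluster of most members was thus crypt stem cell-like by its leading genes, but its cycling cells were mixed. By the groups of cycling cells described below, it held 43 crypt stem cell-like, 48 EEC-like, 47 enterocyte-like, 42 unnamed, 24 goblet-like and 8 tuft-like cells.

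Cells of one cluster could be set side by side with and without the rule genes. In the crypt stem cell-like cluster, 127 cells had none of the 5, with a median of 10487 UMIs against 14672 in its cycling cells. The S phase set stood at 19.8 UMIs per 10000 in the cycling against 5.01 in the other cells of the cluster, a ratio of 3.95, and the G2/M set without rule genes at 57.7 against 12.1, a ratio of 4.78. Centromere and kinetochore genes, with the rule gene Birc5 among them, were 25.6 times as high, Hmgb2 10.4 times and Stmn1 6.65 times. The crypt stem cell list was closer, at 8.75 against 4.43 (1.98-fold), with Ascl2 2.59, Smoc2 2.24 and Olfm4 1.73 times as high and Lgr5 1.29 times (0.637 to 2.84). Hes1 was 1.07 times as high and was found in 49.6% of the cluster's cells with none. Cdkn1a was 0.695 times as high, and the enterocyte list stood at 93.2 against 317.

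In the goblet-like cluster, 148 cells had none of the rule genes. There the S phase set stood at 14.0 UMIs per 10000 in cycling cells against 1.98 (7.07-fold), and the G2/M set without rule genes at 54.2 against 8.79 (6.17-fold). The goblet list stood at 836 against 2625 and the stem cell list at 5.42 against 2.61. Division genes were therefore high in cycling cells of both clusters, with goblet genes lower in the cycling cells of each (257 against 572 in the first).

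The 306 cells varied widely in both sets. The median cell held 14.4 UMIs per 10000 of the S phase set (0 to 78.0) and 51.1 of the G2/M set without rule genes (0.771 to 186). Above both medians lay 61 cells, above the S phase median alone 92, above the G2/M median alone 92, and above neither 61. Because the cells were split at medians, the count above both fixes the others, and their balance is no result. Over the 306 cells, which share a library and differ in depth, Spearman's rho between both sets was -0.17, given as a description. Among cells with none, 27 reached the cycling cells' median of the S phase set, 14 of them in the crypt stem cell-like cluster, with a median of 4966 UMIs.

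**Figure D3:**
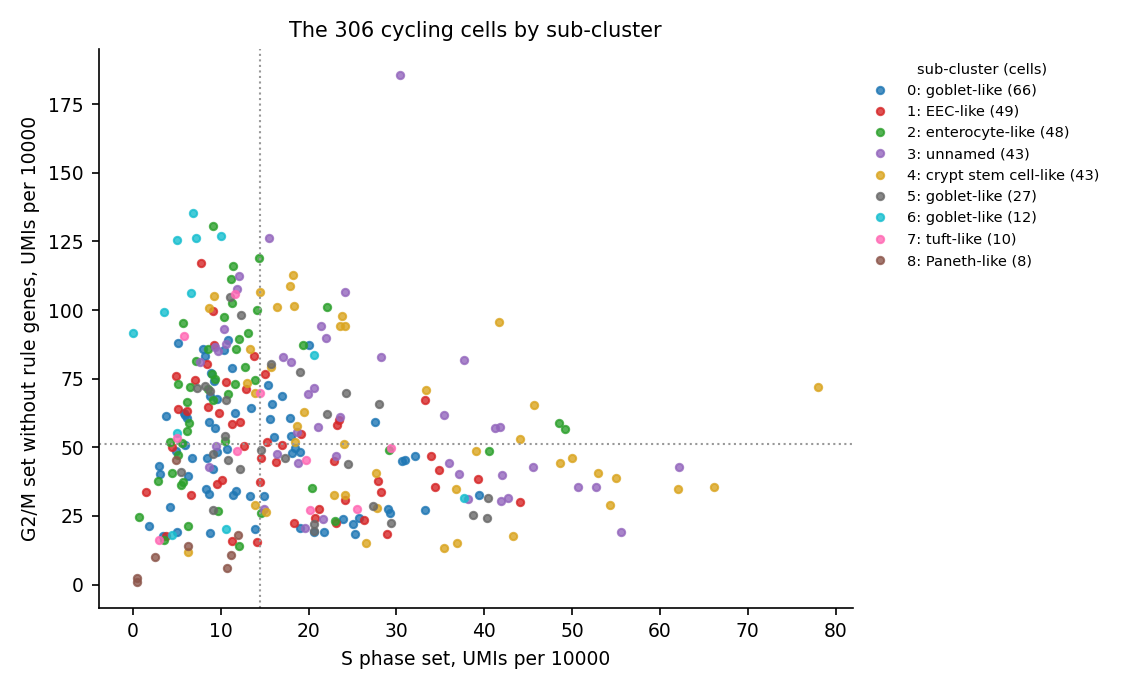
Each point is 1 of the 306 cycling cells, placed by its S phase set (x axis) and its G2/M set without the rule genes (y axis), both in UMIs per 10000, coloured by sub-cluster, with dotted lines at the medians of 14.4 and 51.1. Above the line of the S phase set alone lie 92 cells, of the G2/M set alone 92, and 61 each lie above both or neither. Because each line is a median, the count above both fixes the others.

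Clustered among themselves without the cycle genes, the cycling cells fell into 9 groups (sub-clusters), which differed in genes of other cell types while division genes were present in 8 of them. The values below describe the groups, since the same cells' genes formed them. A crypt stem cell-like group of 43 cells had the highest stem cell list (18.3 UMIs per 10000) and the highest S phase set (27.7), with 57.8 of the G2/M set. Olfm4 was found in 40 of these cells, Ascl2 in 27 and Lgr5 in 15, Stmn1 stood at 9.76, and Cdkn1a at 0.476. The MHC class II genes H2-Aa and H2-Eb1 were among its leading genes. No cell of it was among the highest doublet scores (the 749 cells of the library most like simulated mixtures of cells).

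A second group of 43 cells stayed unnamed, with 25.0 UMIs per 10000 of the S phase set, 60.5 of the G2/M set and 7.52 of the stem cell list. An enterocyte-like group of 48 cells stood at the other end for S phase among the larger groups, with 11.6 of the S phase set, 65.3 of the G2/M set and 2.78 of the stem cell list, and with 196 of the enterocyte list. Its leading genes were absorptive, such as Enpep, Mttp, Slc7a9 and Reg3b. Olfm4 was found in 4 of its cells, Ascl2 in 1 and Lgr5 in 0.

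Goblet genes marked 3 groups, of 66, 27 and 12 cells, with goblet lists of 806, 1012 and 915 UMIs per 10000 against 158 to 402 in the other groups. The group of 66 was led by Retnlb, Guca2a and Spink4 and the group of 27 by Zg16, Tff3, Fcgbp and Muc2, the gel-forming mucin. The group of 12 held 9.20 of the S phase set, 89.2 of the G2/M set, 7.85 of Ube2c and 19.1 of Hmgb2, the highest levels of the latter 3 among the 9 groups. Atoh1 was found in 10 of these 12 cells at 2.49 UMIs per 10000, against 0.0821 to 0.706 in the other groups, and Kit and Agr2 were among its leading genes.

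An EEC-like group of 49 cells held 441 UMIs per 10000 of the EEC list against 37.4 to 83.5 in the other groups, led by Tac1, Chgb, Gcg and Scg2. It held 20 of the 25 Neurog3 UMIs, in 4 cells, and stood at 17.4 of the S phase set and 49 of the G2/M set. Cdkn1a stood at 3.35 in it. Of its cells, 17 (34.7%) were among the highest doublet scores, against 10.5% of all cycling cells, and the part of mixed droplets in its hormone genes was not tested. Single cells gave 55.2% of the Gcg and 57.2% of the Sst UMIs of the cycling cells.

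A tuft-like group of 10 cells held 31.5 UMIs per 10000 of the tuft list, with Dclk1, Rgs13 and Avil among its leading genes, against at most 0.463 in the other groups, and 4 of its 10 cells were among the highest doublet scores. A Paneth-like group of 8 cells held 3178 of the Paneth list at a median of 27387 UMIs a cell. It was the group with the least of the division programme, at 3.06 of the 5 rule genes against 11.8 to 24.4 in the others, 5.35 of the S phase set and 10.9 of the G2/M set, which stood at 10.2 in free RNA. Of the 8 cells, 5 held exactly 3 of the rule genes. With resolutions of 0.5 and 1.2, chosen after the data were seen, the cycling cells fell into 8 and 12 groups.

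**Figure D4:**
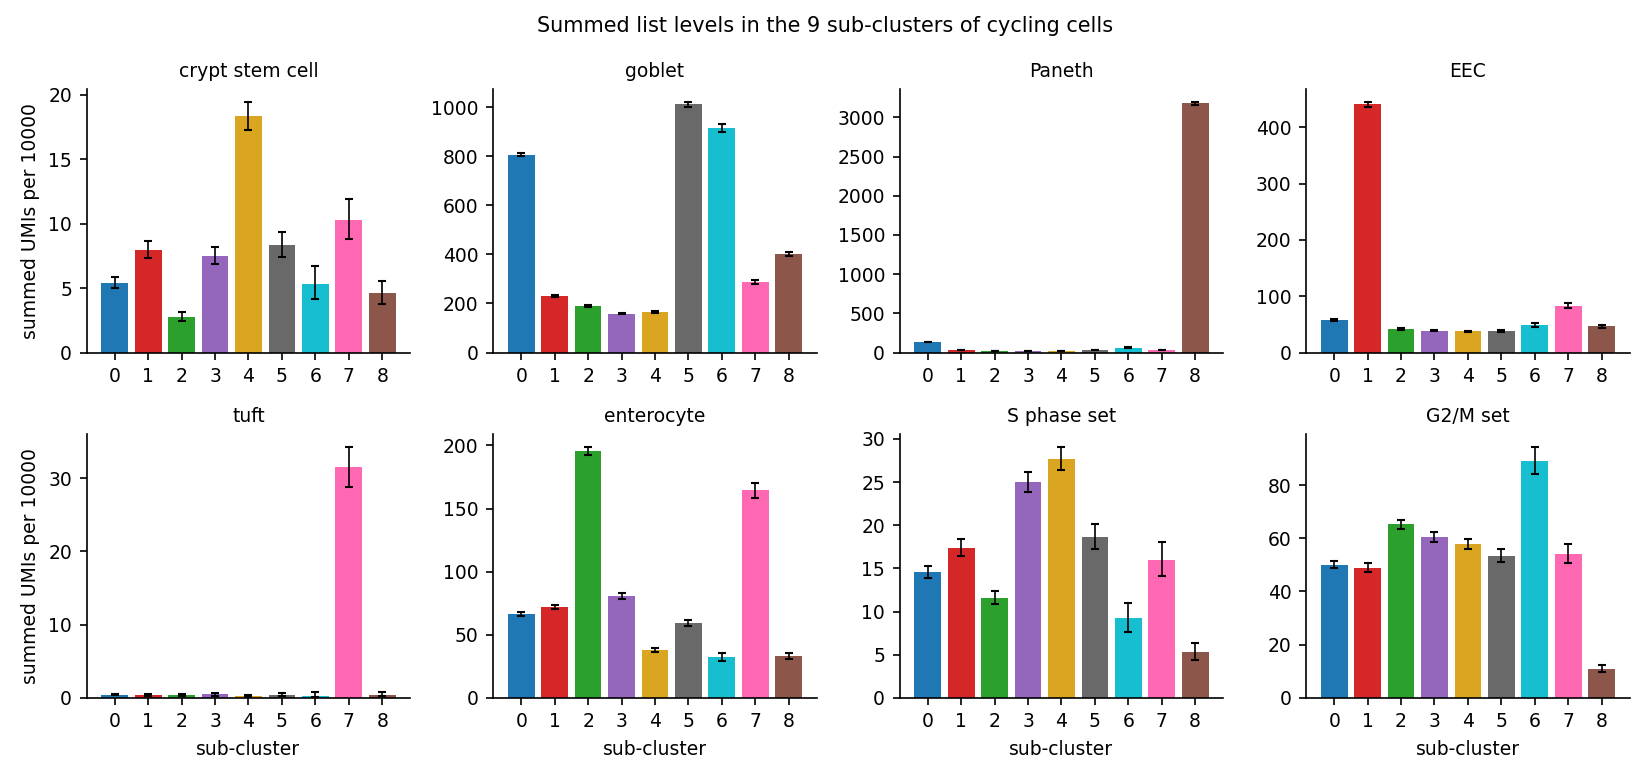
Summed UMIs per 10000 of 8 gene lists (panels) in the 9 groups of cycling cells (bars, from 0), with 95% Poisson intervals, where 0, 5 and 6 are goblet-like, 1 EEC-like, 2 enterocyte-like, 3 unnamed, 4 crypt stem cell-like, 7 tuft-like and 8 Paneth-like. The G2/M set lies between 49 and 89.2 in 8 groups and at 10.9 in the Paneth-like group, and the stem cell list is highest, at 18.3, in the crypt stem cell-like group.

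In the bulk libraries, genes of division were measured in sorted pools, where more dividing cells and more RNA per dividing cell cannot be told apart. Values are normalized counts, and differences are on the log2(normalized count + 1) scale with their standard error. Of 161 cycle genes in the table, 63 were higher and 6 lower in CCK+ than in CCK- libraries at an adjusted p under 0.05, where 19.6% of all 22042 genes were higher and 14.1% lower. Refed libraries were higher than fasted ones in 10 genes among CCK- cells (against 0.708% of all genes higher and 0.526% lower) and in 11 genes among CCK+ cells (against 1.31% and 1.23%), and 0 were lower in either. The p-values measure the spread between 3 mice in each group.

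Mki67 counted 652, 668 and 1028 in the CCK+ fasted libraries, 1334, 1581 and 1553 in the CCK+ refed, 365, 403 and 624 in the CCK- fasted, and 992, 1058 and 807 in the CCK- refed libraries. Every refed library lay above every fasted library of the same sort, and the share of all genes for which this holds was not counted. Mki67 was higher in refed libraries by 1.07 ± 0.22 among CCK- cells (adjusted p = 0.0321) and by 0.96 ± 0.22 among CCK+ cells (adjusted p = 0.0344), and higher in CCK+ than in CCK- libraries by 0.71 ± 0.16 (adjusted p = 0.00254). The calls on refeeding were not firm to the choice of libraries. They held in 6 of 17 alternative fits in each sort, with adjusted p between 0.0197 and 0.171 in CCK- and between 0.0276 and 0.180 in CCK+ cells, while the difference stayed between 0.84 and 1.30. Leaving out 1 of the 12 libraries kept either call only where that library was CCK- fasted 3 or CCK+ fasted 3.

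Top2a counted 239, 221 and 447 in CCK+ fasted, 448, 697 and 566 in CCK+ refed, 175, 118 and 244 in CCK- fasted, and 492, 503 and 381 in CCK- refed libraries. The refed libraries lay above the fasted ones in CCK- cells, while in CCK+ cells the highest fasted (447) and the lowest refed library (448) nearly met. The difference on refeeding was 1.40 ± 0.29 among CCK- cells (adjusted p = 0.034) and 0.96 among CCK+ cells (adjusted p = 0.106). Between CCK+ and CCK- libraries it was 0.52 ± 0.21 (adjusted p = 0.0682), and 0.0471 with the mouse as a replicate block. The call on refeeding held in 5 of 17 alternative fits, with adjusted p from 0.0267 to 0.183. As for Mki67, leaving out 1 library kept it only where that library was CCK- fasted 3 or CCK+ fasted 3.

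Ube2c, Stmn1 and Hmgb2 differed between the sorts. Ube2c counted 133, 129 and 262 in CCK+ fasted, 216, 357 and 287 in CCK+ refed, 53.3, 46.3 and 114 in CCK- fasted, and 122, 147 and 120 in CCK- refed libraries. It was higher in CCK+ by 1.22 ± 0.24 (adjusted p = 0.00123), with differences on refeeding of 0.96 in CCK- and 0.77 in CCK+ that missed the threshold (adjusted p = 0.239 and 0.275). Stmn1 counted 83.3, 80.0 and 148, then 168, 164 and 146 in CCK+ fasted and refed, and 38.1, 36.8 and 32.9, then 59.8, 71.4 and 37.9 in CCK- fasted and refed libraries. All 6 CCK+ libraries lay above all 6 CCK- libraries, by 1.49 ± 0.21 (adjusted p = 7.13e-05). Hmgb2 counted 170 to 192 in CCK+ fasted, 272 to 379 in CCK+ refed, 103 to 217 in CCK- fasted and 64.0 to 197 in CCK- refed libraries. It was higher in CCK+ by 0.83 ± 0.25 (adjusted p = 0.0176), a call that was lost in 7 of 20 alternative fits, among them the fasted libraries alone (0.17, adjusted p = 0.791).

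Birc5 and Cdk1 passed in none of the comparisons as fitted over the 12 libraries. Birc5 counted 22.5 to 153 in CCK+ fasted, 141 to 157 in CCK+ refed, 35.0 to 73.1 in CCK- fasted and 60.7 to 82.0 in CCK- refed libraries, and differed by 0.48 between the sorts (adjusted p = 0.363). It passed in the refed libraries alone (1.04, adjusted p = 0.0078) and, on refeeding in CCK+ cells, without CCK+ fasted library 3 (2.48, adjusted p = 0.0126). Cdk1 was low, counting 5.49 to 24.3 in CCK+ fasted, 28.6 to 57.6 in CCK+ refed, 16.2 to 42.1 in CCK- fasted and 15.6 to 42.5 in CCK- refed libraries, and differed by -0.13 (adjusted p = 0.839). The 5 rule genes summed to 633 to 1097 in CCK- fasted and 1384 to 1817 in CCK- refed libraries. In CCK+ libraries they summed to 1060 to 1914 fasted and 2176 to 2850 refed. Mki67 was the largest member of these sums, and Birc5, Cdk1 and Ube2c passed no test on refeeding over the 12 libraries.

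**Figure D5:**
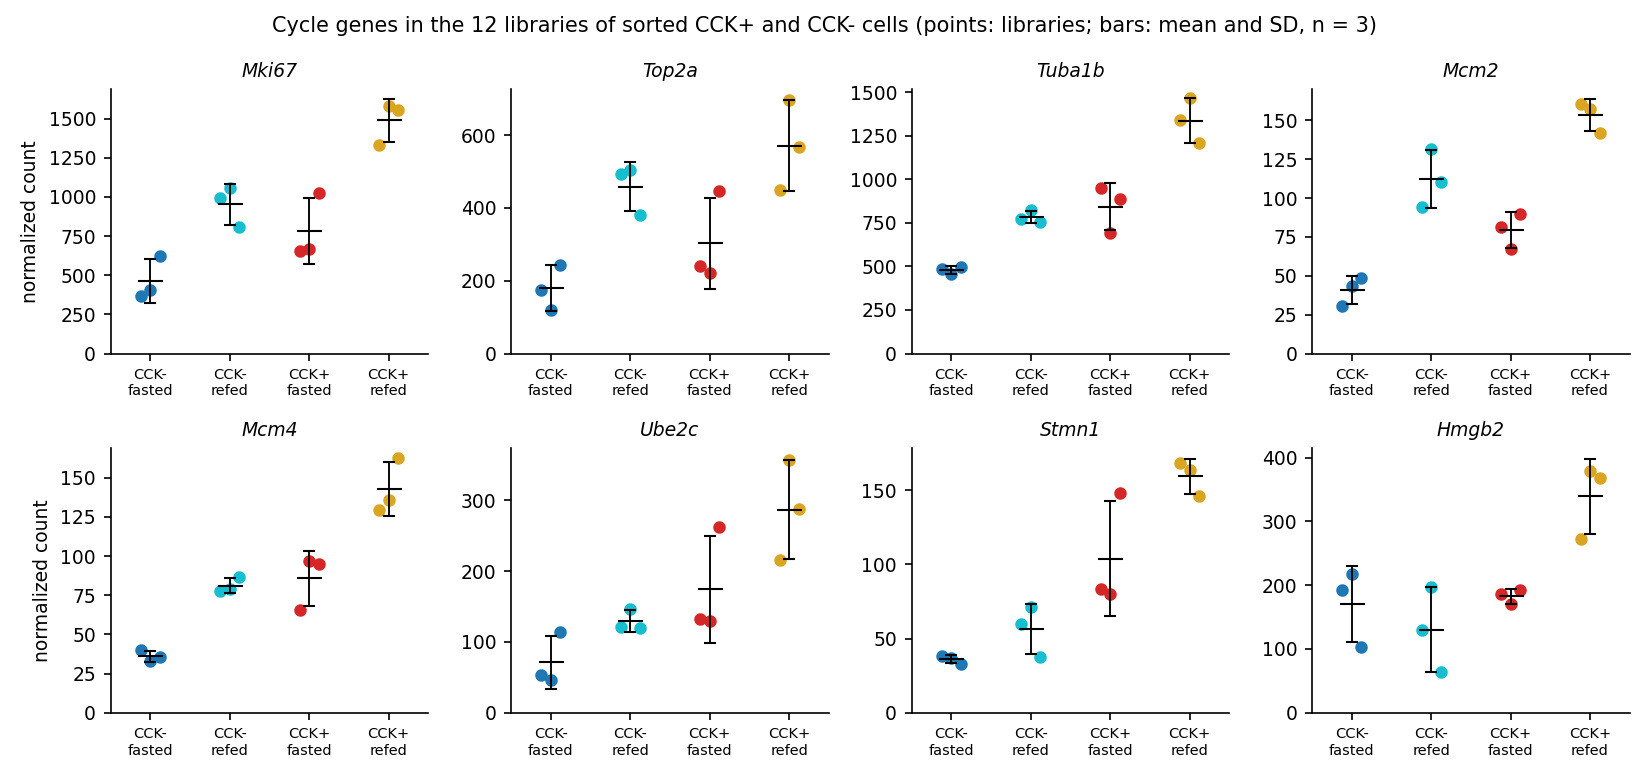
Normalized counts of 8 division genes in the 12 bulk libraries (points, 1 library each) by sort and feeding state, with bars at the mean and error bars of 1 SD over 3 mice. Mki67, Tuba1b, Mcm2 and Mcm4 lie higher in every refed library than in every fasted library of the same sort, while Stmn1 lies higher in all 6 CCK+ libraries. The share of all genes that part in these ways was not counted.

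The 10 genes called on refeeding in CCK- cells were Mki67, Top2a, the helicase genes Mcm2 and Mcm4, the leading-strand polymerase Pole, the chromatin remodeller Hells, the S phase cyclin Ccna2, the E2F repressor E2f8, the cytoskeletal gene Gas2l3 and the tubulin Tuba1b. Mcm2 counted 30.7, 43.4 and 48.7 in CCK- fasted and 94.2, 131 and 110 in CCK- refed libraries, a difference of 1.44 ± 0.25 (adjusted p = 0.0108). Mcm4 counted 39.9, 32.8 and 35.7, then 77.7, 78.8 and 86.5, a difference of 1.14 ± 0.24 (adjusted p = 0.0334). In CCK+ cells the same genes counted 67.1 to 89.9 and 142 to 161 (Mcm2), and 65.5 to 97.1 and 130 to 162 (Mcm4), without passing the threshold (adjusted p = 0.0581 and 0.125). Hells counted 30.6 to 39.4 in CCK- fasted and 60.9 to 405 in CCK- refed libraries, a difference of 2.39 ± 0.52 (adjusted p = 0.0392). Of the 12 licensing genes, only Mcm2 and Mcm4 passed in this comparison, and 8 had a positive sign.

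In CCK+ cells the 11 genes that were higher after refeeding were Mki67, Tuba1b, Tubb5, the primase-associated polymerase Pola1, the G1/S cyclin Ccne2, the G1 kinase Cdk6, the histone chaperones Nasp and Anp32e, the nuclear genes Tmpo and Rangap1, and Usp1. Pola1 counted 38.3 to 50.1 in CCK+ fasted and 103 to 164 in CCK+ refed libraries, a difference of 1.51 (adjusted p = 0.0156). Anp32e counted 198 to 301 and 489 to 612, a difference of 1.21 (adjusted p = 0.0075). Mki67 and Tuba1b were called in both sorts, which came from the same mice, 20% of the CCK- genes and 18.2% of the CCK+ genes. Tuba1b counted 690 to 949 in CCK+ fasted, 1205 to 1466 in CCK+ refed, 453 to 494 in CCK- fasted and 755 to 825 in CCK- refed libraries, with differences of 0.71 ± 0.15 in CCK- (adjusted p = 0.0343) and 0.68 ± 0.15 in CCK+ cells (adjusted p = 0.0283).

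Whether refeeding acted alike in both sorts was tested as an interaction. No cycle gene passed by limma, where the smallest adjusted p was 0.665, and 0.00454% of all genes were higher and 0 lower. An unadjusted p under 0.05 was found in 14 of the 161 cycle genes and in 1378 of all 22042 genes. Before adjustment, 46 of the 161 genes had a p under 0.05 on refeeding among CCK- and 60 among CCK+ cells. Over all 22042 genes the same counts were 2635 and 3736. The median difference of the 161 genes on refeeding was 0.43 in CCK- and 0.64 in CCK+ cells, against 0 and 0.01 over all genes, and 126 and 141 of them had a positive sign. The crypt stem cell list had 0 genes called on refeeding in either sort. Olfm4 counted 185 to 243 in CCK- fasted and 324 to 509 in CCK- refed libraries, 358 to 1058 and 679 to 1170 among CCK+ cells, and Lgr5 counted 9.19 to 28.3 and 13.7 to 79.0, then 15.3 to 52.6 and 55.0 to 117.

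Between the sorts, the share of a list that was higher in CCK+ libraries ran from 20% for centromere and kinetochore genes, next to the 19.6% of all genes, to 69.2% for mitotic kinases and checkpoint genes. Of the licensing list 5 of 12 were higher and 0 lower, of the fork list 6 and 1 of 20, of nucleotide synthesis 3 and 1 of 8, of cyclins and kinases 8 and 0 of 14, of mitotic kinases and checkpoint genes 9 and 0 of 13, of centromere genes 3 and 0 of 15, of spindle genes 6 and 1 of 21, and of chromatin genes 11 and 0 of 20. Ccnd2 had the largest difference, 3.06 ± 0.26 (adjusted p = 6.78e-07), with 818 to 3562 in CCK+ and 214 to 350 in CCK- libraries. Ccnd3 was higher by 1.91, Cdk4 by 1.79, Dut by 1.78, Tubb5 by 1.49, Hmgn2 by 1.49, Pola1 by 1.41 and H2afz by 1.13. Of the licensing genes Mcm5 was higher by 1.54, Mcm3 by 1.33, Mcm7 by 1.02, Mcm4 by 1.01 and Mcm2 by 0.71, while Gmnn (-0.46), Orc6 (-0.31) and Cdc6 (0.59) did not pass. Of the 6 genes lower in CCK+ libraries, Cdc45 unwinds DNA at the fork and Tubb4b is a tubulin, and Usp1, Casp8ap2 and Gas2l3 were also among them. Over the 161 genes the median difference was 0.56, against 0.09 over all genes. The fasted libraries alone gave 12 calls, 11 higher and 1 lower.

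The sorts also differed in what else they held. The EEC list was higher in CCK+ libraries in all 21 genes, and 11 of 14 enterocyte genes were lower. Immune genes were higher in CCK+ libraries in 15 of 17, with a median difference of 3.33, and summed to 5869 to 11031 normalized counts in CCK+ fasted, 7728 to 9347 in CCK+ refed, 759 to 1267 in CCK- fasted and 657 to 893 in CCK- refed libraries. Their part in the cycle genes' difference between the sorts was not tested. The crypt stem cell list had 13 genes higher and 1 lower of 19, among them Msi1 (4.22), Cd44 (3.07), Olfm4 (1.30, adjusted p = 0.00078) and Ascl2 (1.00, adjusted p = 0.0332), while Lgr5 (0.98, adjusted p = 0.108) and Smoc2 (0.99, adjusted p = 0.16) did not pass. Neurog3 differed by 1.44 (adjusted p = 0.0787), Sox4 was higher by 4.09 and Dll1 lower, by -0.91. Among cycle brakes 5 were higher and 3 lower of 12, with Cdkn1c (p57) higher by 2.33, Btg2 by 1.16 and Cdkn1a by 0.65.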

How the data were processed

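The droplet library was made on the GemCode platform and processed by the authors with Cell Ranger 2.0.1 on mm10, which gave the deposited UMI counts per gene and barcode, with empty droplets kept. The bulk libraries were amplified with Ovation RNA-Seq V2. The authors trimmed reads with Trim Galore 0.6.7, quantified them with Salmon 1.6.0 on GRCm39, dropped genes with at most 1 count and deposited normalized counts made with DESeq2, a signal that keeps no whole reads (36.7 to 48.8% of low values were whole multiples of the smallest step, within 0.01), so count tests were not used. Bulk titles name CCK+ cells throughout, and the sort was taken from the cell type label. The tdTomato transcript was not analysed here, and some genes of the lists are not reported here.

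Levels are summed UMIs per 10000 with exact 95% Poisson intervals, shares have exact binomial (Clopper-Pearson) intervals, and thinning drew 2000 UMIs per cell, which left out 58 cells but no cycling cell. Genes were compared at 50 UMIs or more. Depth matching weighted 7493 cells with none by depth bins of at least 10 cells. Cells were clustered with scanpy 1.11.5 and leidenalg 0.10.2 (2000 variable genes, 40 components, 15 neighbours, resolution 1; for cycling cells 1500, 15, 10 and 0.8) and named from marker lists. Scrublet called 0 doublets at its own threshold of 0.622 and so gave no usable call, and the 749 highest scores (7.93%) were left out in an alternative. The bulk sums were 7061155 to 11371114 normalized counts per library. limma 3.58.1 (R 4.3.3) was fitted with a trend to log2(normalized count + 1) over all 22042 genes and 4 group means, with Benjamini-Hochberg adjustment and a threshold of 0.05. Both libraries of a mouse came from the same animal, and their deviations from the group means correlated at 0.0773 to 0.124, so the mouse was a replicate block in an alternative. Promoters are RefSeq windows on GRCm38.p6. Cell tables were handled in Python 3.11.15 (scipy 1.17.1, numpy 2.4.6, scikit-learn 1.9.0, pandas 2.3.3, matplotlib 3.10.9), and the code was tested on simulated data. Named genes were the rule genes, Stmn1 and Hmgb2, per list the most abundant and the extreme ratios, outside the lists the 12 highest and lowest ratios, and in bulk the smallest p of each list, all licensing genes and fixed stem and commitment genes. The members and lists were chosen with earlier results of these data known. Alternatives changed the cell filters, the number of rule genes, depth treatment, doublets, pseudocount, scaling, the low-value filter, the trend, the block and each library.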

Additional observations from a re-analysis of the deposited data

How the results depend on the processing

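The share of cycling cells, 3.24%, followed the depth of the cells. It was 1.86% with at least 500 genes per cell and 5.65% with 1500, 4.25% above a limit of 3892 UMIs (the Cell Ranger 2 rule), 4.37% with at least 2 of the rule genes, 2.45% with at least 4, and 0.884% in cells thinned to 2000 UMIs. The ratio to cells with none was 10.5 for the S phase set, against 12.6 in depth bins, 9.87 when thinned, 10.1 as a mean over cells and 3.95 within the cluster of most cycling cells. For the G2/M set it was 7.37, against 9.25, 7.10, 7.15 and 4.78 in the same order, 7.63 without the highest doublet scores and 8.31 with at least 4 rule genes. For the stem cell list it was 4.49, against 4.24 thinned, 4.28 as a mean over cells and 1.98 within the cluster.

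In bulk, the 10 calls on refeeding in CCK- cells became 5 with a pseudocount of 10 and 1 with no trend, and the 11 in CCK+ cells became 1 with no trend. Without 1 library at a time, calls between the sorts numbered 54 to 68, on refeeding 0 to 7 in CCK- and 1 to 11 in CCK+ cells, and 0 to 0 for the interaction, with fewer samples behind each fit. The CCK- count was 2, 1 and 6 without CCK- fasted libraries 1, 2 and 3, 3, 1 and 0 without CCK- refed 1, 2 and 3, 5 without CCK+ fasted 1, and 2, 1 and 3 without CCK+ refed 1, 2 and 3. The CCK+ count was 4 without CCK+ fasted 2, 5, 1 and 2 without CCK+ refed 1, 2 and 3, and 7 without CCK- refed 1 or 3. Calls between the sorts numbered 12 in the fasted libraries alone and 46 in the refed alone. The replicate block of the mouse gave 75 calls between the sorts, 11 and 11 on refeeding and 0 for the interaction (77 and 0 as a fixed effect), and among the rule genes it changed the call of Top2a alone. Upper-quartile scaling gave 80, 9, 8 and 0.

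Cdk1 changed sign on refeeding in CCK- cells (-0.02) without CCK- fasted library 1 (0.001) or 3 (0.31) or CCK- refed library 3 (0.34), within a range of -0.35 to 0.34, and between the sorts (-0.13, range -0.31 to 0.18) without CCK- fasted 3 (0.03), CCK- refed 1 (0.04) or CCK+ fasted 1 (0.18) and in the refed libraries alone (0.55). Birc5 changed sign between the sorts in the fasted libraries alone (-0.071). Of 378 such values for named genes, 321 kept direction and side of the threshold, 43 lost the threshold, 6 gained it and 8 changed sign, and the cause was not tested. One droplet library limits every cell comparison to counting error.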

Other observations

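A single cycling cell carried genes known from the stomach. It held 18789 UMIs and 4 of the rule genes, with 515 UMIs of Gkn1, 639 of Gkn2, 672 of Tff1 and 593 of Tff2, and over all cells of the library these genes had 614, 689, 719 and 810 UMIs. The intestinal transcription factors Cdx1 and Cdx2 had 0 UMIs in it, where 858 and 405 cells held at least 3, and Epcam had 19.

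Another cycling cell, of 2961 UMIs and 4 rule genes, held lymphocyte genes, with 181 of the 214 Gzma UMIs of the cycling cells, 90 of the 147 of Ccl5, 13 of Cd7 and 7 of Cd3g. Epcam had 0 UMIs in it. It was the cell of fewest UMIs among the 306.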
